A study of Mus musculus with 11 samples.

Results

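Most of the genes described here encode protein parts of the spliceosome's small nuclear ribonucleoproteins (snRNPs) or the SR proteins that guide them to exons. All were chosen by symbol, as every gene whose name begins with Snrp, Lsm and a digit, Sf3a, Sf3b, or Srsf and a digit. The symbols also took in some LSm proteins that act outside the spliceosome, described below. The choice gave 43 of the 23284 genes counted, in 6 families: 8 Sm core proteins, 4 other U1 and U2 snRNP proteins, 8 subunits of the SF3 complex, 7 members of the LSm ring, 5 other LSm proteins and 11 SR proteins. Of these, 42 had enough reads to be tested, and Snrpn did not.

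The data were RNA-seq read counts from 11 tumors of mice with small cell lung cancer (SCLC), a carcinoma of neuroendocrine character. All 11 carried the genotype labelled Rb;p53,TRE-MYCN, LSL-RTTA, in which a doxycycline-responsive promoter drives MYCN and a stop-flanked transactivator needs recombination to be made. The tumors labelled ONDOX (n = 7) were grown with doxycycline, so that MYCN was on. The tumors labelled OFFDOX (n = 4) had been without doxycycline for 7 days. No tumor received doxycycline without the transgene, so effects of the drug and of MYCN cannot be told apart. Neither the recombinase that opens the transactivator, nor the strain, the age of the mice or the number of mice is given in the labels. The p-values therefore describe the spread between these tumors, which could in part come from tumors of 1 mouse.

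Introns are removed from pre-mRNA by the spliceosome, which is built from the U1, U2, U4, U5 and U6 snRNPs. A ring of Sm proteins is loaded onto the U1, U2, U4 and U5 RNAs with the help of the arginine methyltransferase PRMT5 and the SMN complex, whereas U6 carries a ring of LSm proteins. SR proteins bind exonic enhancers through RNA recognition motifs and recruit U1 and U2 through their arginine-serine domains. Many SR genes also hold conserved poison exons whose inclusion sends the transcript to decay, and counts per gene do not separate such isoforms. MYC proteins are transcription factors that raise RNA output, and MYC-driven tumor cells are known to depend on the splicing machinery.

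The promoters of 3 genes are shown because they hold letters that MYC-family proteins are known to bind. Snrpa was the one gene of the 36 with a promoter window on hand that held the canonical E-box CACGTG, and Lsm3 and Srsf3 were the LSm ring and SR protein genes with the smallest p. CACGTG and the variant CACGCG (or its reverse complement CGCGTG) are printed in capitals and the other bases in lower case. The sequences run 5′ to 3′ over the 250 bases before a RefSeq transcript start of build GRCm38.p6. They lie at chr7:27196272-27196521 on the minus strand for Snrpa, chr6:91515785-91516034 on the plus strand for Lsm3 and chr17:29032410-29032659 on the plus strand for Srsf3.
Snrpa: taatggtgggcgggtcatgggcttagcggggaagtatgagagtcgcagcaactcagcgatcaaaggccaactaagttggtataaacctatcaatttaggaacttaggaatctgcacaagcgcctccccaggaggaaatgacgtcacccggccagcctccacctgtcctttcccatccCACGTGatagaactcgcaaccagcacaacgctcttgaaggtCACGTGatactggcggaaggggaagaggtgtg
Lsm3: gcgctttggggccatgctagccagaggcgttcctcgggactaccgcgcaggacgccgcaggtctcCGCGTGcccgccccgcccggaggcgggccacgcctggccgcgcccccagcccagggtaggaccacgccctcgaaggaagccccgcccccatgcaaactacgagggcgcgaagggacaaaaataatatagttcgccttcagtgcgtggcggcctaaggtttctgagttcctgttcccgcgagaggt
Srsf3: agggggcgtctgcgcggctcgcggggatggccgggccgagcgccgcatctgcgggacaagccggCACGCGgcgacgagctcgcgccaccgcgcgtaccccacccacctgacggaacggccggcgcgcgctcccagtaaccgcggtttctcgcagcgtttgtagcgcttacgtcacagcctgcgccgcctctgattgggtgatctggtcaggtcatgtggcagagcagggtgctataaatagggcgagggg

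The E-boxes of Snrpa begin 73 and 32 bases before the start, the CGCGTG of Lsm3 185 bases before it and the CACGCG of Srsf3 186 bases before it. RefSeq windows of 250 bases before to 50 after a start matched 36 of the 43 genes by symbol. CACGTG, which reads the same on both strands, occurred in 1 of these 36 genes (2.78%), against 11.3% of the 10732 tested genes with a window. CACGCG on either strand occurred in 12 of the 36 (33.3%), against 18.9% of the tested genes. The Sp1-type box GGGCGG occurred in 26 of the 36 on either strand (72.2%), against 66.5% of the tested genes. Matches on both strands can overlap, and a gene counts once for each motif. A match is a description of letters in these windows and does not show binding.

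The depth was 10324089 to 13123838 reads assigned to genes per ONDOX tumor and 8951733 to 12190957 per OFFDOX tumor. The 43 genes took 0.760% to 0.904% of these reads in ONDOX tumors and 0.490% to 0.656% in OFFDOX tumors, so that the ranges did not overlap. Mycn, the mouse gene that checks the labels, had 36.5, 109 and 171 CPM (reads of a gene relative to the tumor's total, scaled by TMM factors) as lowest, median and highest value in ONDOX, against 14.5, 15.7, 12.97 and 5.63 CPM in OFFDOX tumors 1 to 4 (log2 fold change 3.06, SE 0.47, edgeR adjusted p = 0.00139). The labels do not say from which species the transgene comes. All 10 neuroendocrine markers were detected in all 11 tumors, with 1 called higher and 1 lower in ONDOX. Their sums were 2090 to 3874 CPM in ONDOX and 1679 to 7921 CPM in OFFDOX. The tumors differed in other tissue: the 12 lung markers summed to 8.41 to 3411 CPM in ONDOX and 58.4 to 33138 CPM in OFFDOX, with 3 of them at 0 in at least 1 tumor and 4 of 12 called lower in ONDOX. OFFDOX tumors 1, 3 and 4 and ONDOX tumors 3 and 5 each had a lung sum of at least 997 CPM, and OFFDOX tumor 2 had 58.4 CPM. Immune markers (5 of 9 tested lower in ONDOX, sums of 192 to 763 CPM in ONDOX against 318 to 5496 CPM in OFFDOX) and endothelial markers (4 of 8 lower, 96.9 to 404 CPM in ONDOX against 170.1 to 1007 CPM in OFFDOX) moved the same way, while 6 of 15 mitosis markers were higher (3349 to 6799 CPM in ONDOX against 649.6 to 4574 CPM in OFFDOX, where tumor 2 was highest). None of 8 fibroblast and 10 muscle markers was called (muscle sums of 32.7 to 614 CPM in ONDOX and 26.5 to 575 CPM in OFFDOX, with Myh6 the most abundant). In bulk RNA, fewer cells of a type and less RNA per cell cannot be told apart.

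Genes chosen by these symbols were called higher in ONDOX in each of the 6 families. Of the 42 tested, 31 were called higher and 0 lower by edgeR's quasi-likelihood test at an adjusted p below 0.05, where 16.0% of all 15237 tested genes were called higher and 13.4% lower. At an unadjusted p below 0.05, 33 were higher and 0 lower, beside 22.03% and 20.9% of all genes. DESeq2 and limma voom each called 31 higher and 0 lower, beside 17.5% and 16.4% of all genes called higher. Called members with a change of at least 2-fold numbered 17, against 7.90% of all genes. Every ONDOX tumor lay above every OFFDOX tumor for 26 of the 42, against 11.4% of all genes, and 0 had every ONDOX tumor below, against 5.41%. The median log2 fold change, ONDOX over OFFDOX, was 0.94 for the 42 and 0.00 for all genes tested. Positive fold changes were seen for 41 of the 42, against 50.1% of all genes, the exception being Lsm10. Calls of higher genes made up 54.5% of all calls under TMM scaling, 37.0% under upper quartile scaling and 28.2% where library totals were the only scaling. With library totals the median of all genes was -0.31 and that of the members 0.63, 23 members were called higher and 0 lower, beside 8.64% of all genes (1317) higher and 3347 genes lower, and 35 had a positive fold change. The 8 genes that lost their call there were Lsm4, Lsm6, Lsm11, Lsm14b, Sf3a1, Sf3a3, Sf3b1 and Snrpb.

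**Figure D1:**
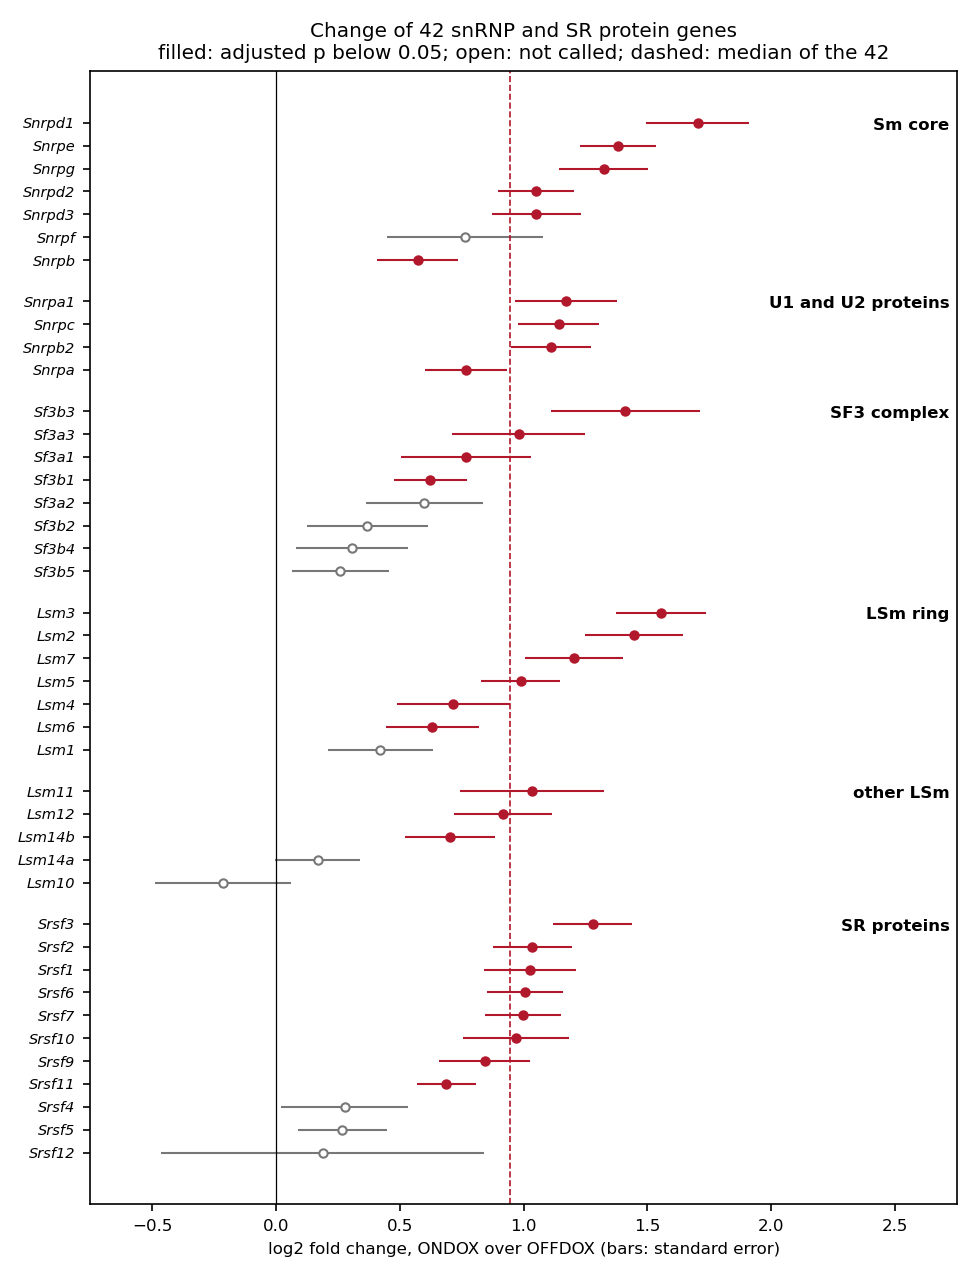
Log2 fold change of each tested gene, ONDOX over OFFDOX, with its standard error (x axis), by family (y axis). Filled points are the 31 genes called higher, open points the 11 not called, and the dashed line is the median of 0.94. Snrpd1 lies farthest right at 1.70 and Lsm10 is the one gene left of 0.

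In the Sm core, 6 of the 7 tested genes were higher in ONDOX, each with all ONDOX tumors above all OFFDOX tumors, and the median log2 fold change of the 7 was 1.05. Snrpd1, which encodes SmD1, had 146, 197 and 229.8 CPM as lowest, median and highest value in ONDOX, against 59.5, 66.6, 71.0 and 37.9 CPM in OFFDOX tumors 1 to 4. The groups were far apart, and the log2 fold change of 1.70 (SE 0.21, edgeR adjusted p = 0.000562) was the largest of the 42. Snrpe, the SmE gene, had 128, 141 and 182 CPM in ONDOX against 64.9, 53.3, 64.5 and 49.0 CPM in OFFDOX (log2 fold change 1.38, SE 0.15), with the smallest edgeR adjusted p of the 42 (0.000379). Snrpg, the SmG gene, had 99.3, 133 and 169.5 CPM in ONDOX against 51.6, 58.2, 58.6 and 47.1 CPM in OFFDOX (log2 fold change 1.32, SE 0.18, edgeR adjusted p = 0.000831). No ONDOX tumor overlapped an OFFDOX tumor in these 3 genes, which were 2.50-fold to 3.26-fold higher in ONDOX. Snrpd2 and Snrpd3, for SmD2 and SmD3, both had a log2 fold change of 1.05, with adjusted p-values in edgeR of 0.0012 and 0.0021.

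Snrpb, which encodes SmB, changed least among the called Sm genes. It had 216, 251 and 272 CPM in ONDOX against 117, 211, 167 and 163 CPM in OFFDOX (log2 fold change 0.57, SE 0.16, edgeR adjusted p = 0.0224). OFFDOX tumor 2 came close to the lowest ONDOX tumor, and the adjusted p was 0.0515 to 0.0575 in the fits without ONDOX tumor 3 or without OFFDOX tumor 1, 3 or 4. Snrpf, the SmF gene, was not called, with 59.3, 85.1 and 108 CPM in ONDOX against 23.6, 84.0, 49.3 and 42.5 CPM in OFFDOX (log2 fold change 0.76, SE 0.31, edgeR adjusted p = 0.0848). Its OFFDOX tumor 2 lay within the ONDOX range, and without that tumor the adjusted p was 0.0132 (log2 fold change 1.15). In the GENCODE M21 annotation 65.9% of the exonic bases of Snrpf overlap Ccdc38 on the other strand, so part of its reads may have been set aside as ambiguous or belong to that gene.

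Snrpn, the SmN gene of brain and other neural tissue, takes the place of SmB where it is made. It had 6, 0, 16, 0, 1, 28 and 1 reads in ONDOX tumors 1 to 7 and 0, 0, 20 and 0 reads in OFFDOX tumors 1 to 4. Reads were present in 5 ONDOX tumors and in 1 OFFDOX tumor, and 3 tumors had more than 10. Snrpn shares exons on the same strand with Snurf, which was listed with 1 read in ONDOX tumor 2 and 0 in all other tumors, so reads from the shared transcript may have been counted for neither. The log2 ratio of Snrpn to Snrpb reads averaged -9.90 ± 2.39 in ONDOX and -10.6 ± 2.44 in OFFDOX (SD, n = 7 and 4), a difference of 0.67 (two-sided exact permutation p = 0.709, adjusted over 2 ratios p = 0.709). Without 1 tumor the difference ranged from 0.08, without ONDOX tumor 6, to 1.88, without OFFDOX tumor 3.

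The Sm genes are short, and processed pseudogenes can take their reads out of the unique alignments. Reads aligned to several places, which were counted for no gene, made up 13.8% to 20.9% of the records in ONDOX and 9.15% to 11.9% in OFFDOX. These ranges did not overlap. What part this had in the values of the Sm and LSm genes was not tested.

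**Figure D2:**
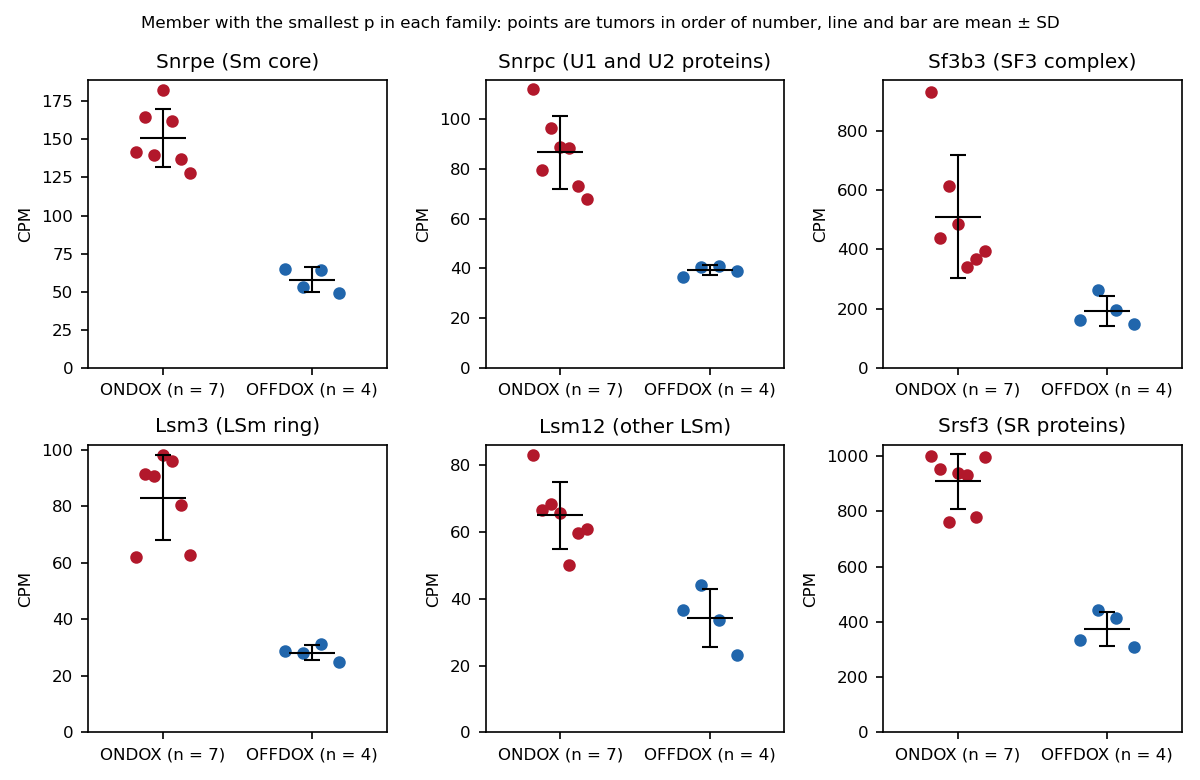
CPM (y axes, from 0) of the gene with the smallest p in each family, in the 7 ONDOX and 4 OFFDOX tumors. Points are tumors in order of their number, and the line and bar are mean ± SD. In each of the 6 panels all ONDOX points lie above all OFFDOX points, and Sf3b3 has 1 ONDOX tumor at 932 CPM.

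All 4 genes for other U1 and U2 proteins were higher in ONDOX with no overlap between the groups, and their median log2 fold change was 1.13. Snrpc encodes U1-C, which steadies the pairing of U1 RNA with the 5′ splice site. It had 67.9, 88.1 and 112 CPM in ONDOX against 36.4, 40.6, 40.7 and 39.1 CPM in OFFDOX (log2 fold change 1.14, SE 0.16, edgeR adjusted p = 0.001). The 4 OFFDOX tumors lay within 5 CPM of each other. Snrpb2, for the B″ protein that binds U2 RNA, had 118, 133 and 189.9 CPM in ONDOX against 70.5, 68.5, 68.9 and 55.5 CPM in OFFDOX (log2 fold change 1.11, SE 0.16, edgeR adjusted p = 0.00111). Its partner Snrpa1, for the A′ protein of U2, had 76.9, 99.1 and 133 CPM in ONDOX against 36.9, 58.0, 54.3 and 34.2 CPM in OFFDOX (log2 fold change 1.17, SE 0.21, edgeR adjusted p = 0.00251). In both partners the groups were apart. Snrpa, for the A protein that binds U1 RNA, the gene with the E-boxes shown above, averaged 129 ± 20.3 CPM in ONDOX and 75.6 ± 11.9 CPM in OFFDOX (SD, n = 7 and 4; log2 fold change 0.77, edgeR adjusted p = 0.00685).

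The SF3a and SF3b subunits make up the part of the U2 snRNP that grips the branch site. Of their genes 4 of 8 were called higher, 2 without overlap, with a median log2 fold change of 0.61 and a range of 0.26 to 1.41. The count of 4 was 2 without OFFDOX tumor 1 or 4. Sf3b3, a large scaffold subunit of SF3b, had 341, 439 and 932 CPM in ONDOX against 160.2, 262, 197 and 149 CPM in OFFDOX (log2 fold change 1.41, SE 0.30, edgeR adjusted p = 0.00629). ONDOX tumor 1 was the high one, and without it the log2 fold change was 1.12 (adjusted p = 0.0054, edgeR). Sf3b1, the subunit that closes around the branch-site helix and is mutated in several human cancers, had 481, 559 and 618 CPM in ONDOX against 367, 407, 376 and 276 CPM in OFFDOX (log2 fold change 0.62, SE 0.15, edgeR adjusted p = 0.0106). Sf3a3 had 125, 201 and 243 CPM in ONDOX against 59.6, 125, 104 and 67.7 CPM in OFFDOX (log2 fold change 0.98, SE 0.27, edgeR adjusted p = 0.0196). OFFDOX tumor 2 reached the lowest ONDOX tumor in this gene, and the call was lost without OFFDOX tumor 1 (adjusted p = 0.0597) or 4 (adjusted p = 0.0613).

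Sf3a1, with a log2 fold change of 0.77, was called by a narrow margin (edgeR adjusted p = 0.0461). It was called in the fits without ONDOX tumor 5 and without OFFDOX tumor 2 and in none of the other 9 that left out 1 tumor, where the adjusted p reached 0.131, and it missed the threshold in 6 of 9 other settings. Sf3a2 was not called (log2 fold change 0.60, edgeR adjusted p = 0.0747), but was in the fits without ONDOX tumor 5 (adjusted p = 0.0357) or OFFDOX tumor 2 (adjusted p = 0.0259). It was also called with the tumor number as a block in the model (edgeR adjusted p = 0.0479). Sf3b2, Sf3b4 and Sf3b5, which sit in the same SF3b particle as Sf3b3, had log2 fold changes of 0.37, 0.31 and 0.26 with standard errors of 0.24, 0.23 and 0.20 and were not called (edgeR adjusted p = 0.272 to 0.334). Whether their changes differ from that of Sf3b3 was not tested. The gene listed as 0610009D07Rik, which RefSeq gives as an older name of Sf3b6, falls outside the symbols chosen and was higher in ONDOX at 83.4 ± 14.9 CPM against 48.9 ± 9.29 CPM in OFFDOX (SD, n = 7 and 4; log2 fold change 0.77, edgeR adjusted p = 0.0115). Its call was lost under upper quartile scaling (adjusted p = 0.0558) and library totals (adjusted p = 0.098).

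In the LSm ring, which binds the U6 tail and in its cytoplasmic form the ends of decaying mRNA, 6 of 7 genes were higher, 4 of them without overlap, with a median log2 fold change of 0.99. Lsm3 had 62.0, 90.6 and 98.0 CPM in ONDOX against 28.7, 28.2, 31.1 and 25.0 CPM in OFFDOX (log2 fold change 1.55, SE 0.18, edgeR adjusted p = 0.000457). ONDOX tumor 1 was the lowest of its group and still well above every OFFDOX tumor. Lsm2 had 35.4, 50.3 and 55.9 CPM in ONDOX against 16.3, 23.9, 15.9 and 14.3 CPM in OFFDOX (log2 fold change 1.44, SE 0.20, edgeR adjusted p = 0.00087). Lsm5 had 41.0, 47.3 and 55.5 CPM in ONDOX against 23.8, 28.6, 25.5 and 19.5 CPM in OFFDOX (log2 fold change 0.99, SE 0.16, edgeR adjusted p = 0.00165). Lsm7 was 2.30-fold higher in ONDOX.

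Lsm4 and Lsm6 were called with smaller changes, 0.72 and 0.63 on the log2 scale (edgeR adjusted p = 0.0342 and 0.0271). Both missed the threshold in the fits without ONDOX tumor 1 or 2 or without OFFDOX tumor 1, 3 or 4, and Lsm4 also without ONDOX tumor 3 or 5, with adjusted p of up to 0.104 and 0.0792. Lsm1, the subunit that marks the cytoplasmic decapping ring, had 22.6, 30.1 and 46.3 CPM in ONDOX against 25.3, 26.8, 24.1 and 18.5 CPM in OFFDOX, and the groups overlapped (log2 fold change 0.42, SE 0.21, edgeR adjusted p = 0.146). Its nuclear counterpart LSm8 has no row under that name. RefSeq lists Naa38 as an older name of Lsm8, and the row of that name averaged 63.0 ± 11.5 CPM in ONDOX and 45.7 ± 16.5 CPM in OFFDOX (SD, n = 7 and 4; edgeR adjusted p = 0.16). It was called in the fit without OFFDOX tumor 2 (adjusted p = 0.0405). The planned ratio of Lsm8 to Lsm1 was not computed for lack of that row.

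Among the other LSm genes, 3 of 5 were higher in ONDOX, or 1 of 5 without OFFDOX tumor 4. Lsm12 had 50.04, 65.6 and 83.2 CPM in ONDOX against 36.5, 44.1, 33.6 and 23.2 CPM in OFFDOX (log2 fold change 0.92, SE 0.20, edgeR adjusted p = 0.00661). Lsm14b, an RNA granule protein, had 131, 144 and 172 CPM in ONDOX against 65.0, 123, 98.1 and 73.1 CPM in OFFDOX (log2 fold change 0.70, SE 0.18, edgeR adjusted p = 0.0152). The groups did not overlap in either gene, but the call of Lsm14b was lost without OFFDOX tumor 4 (adjusted p = 0.0509). Lsm14a, the P-body protein that is its paralog, averaged 154 ± 30.6 CPM in ONDOX and 137 ± 21.0 CPM in OFFDOX (SD, n = 7 and 4) and was not called (log2 fold change 0.17, SE 0.17, edgeR adjusted p = 0.483).

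Lsm10 and Lsm11 are the LSm proteins of the U7 snRNP, which processes the 3′ ends of histone mRNAs, and they take the places of SmD1 and SmD2 in its ring. Lsm11 had 14.98, 31.7 and 40.3 CPM in ONDOX against 11.9, 16.1, 20.9 and 12.5 CPM in OFFDOX (log2 fold change 1.03, SE 0.29, edgeR adjusted p = 0.0212). ONDOX tumor 7 was the low one and lay among the OFFDOX tumors, and the adjusted p was 0.0522 without ONDOX tumor 1, 0.0639 without OFFDOX tumor 1 and 0.0622 without OFFDOX tumor 4. Lsm10 had 9.24, 13.2 and 20.7 CPM in ONDOX against 13.4, 17.0, 16.0 and 17.0 CPM in OFFDOX, with overlap and no call (log2 fold change -0.21, SE 0.27, edgeR adjusted p = 0.584). The log2 ratio of Lsm10 to Snrpd1 reads, which needs no scaling between tumors, was -3.84 ± 0.28 in ONDOX, with a range of -4.24 to -3.47, and -1.85 ± 0.47 in OFFDOX, with a range of -2.15 to -1.16 (SD, n = 7 and 4). The difference of -1.99 had a two-sided exact permutation p of 0.00303, the smallest that 330 splits can give, and p = 0.00606 adjusted over 2 ratios. Snrpd1 alone already separated the groups, so this p-value is not a separate result on Lsm10. The ratio was lower in 7 of 7 ONDOX tumors than in any OFFDOX tumor. Since Lsm10 had as few as 84 reads in a tumor, its counting error is part of the spread.

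Of the SR protein genes, 8 of 11 were higher in ONDOX, all 8 without overlap, with a median log2 fold change of 0.97 over the 11. Srsf3, the smallest SR protein, had 760, 939 and 1000.02 CPM in ONDOX against 335, 442, 413 and 308 CPM in OFFDOX (log2 fold change 1.28, SE 0.16, edgeR adjusted p = 0.000597). Srsf6 had 426, 482 and 652 CPM in ONDOX against 270.5, 238, 236 and 254 CPM in OFFDOX (log2 fold change 1.01, SE 0.15, edgeR adjusted p = 0.00138). Srsf7, the SR protein with a zinc knuckle, had 333, 431 and 547 CPM in ONDOX against 195, 228, 237 and 208 CPM in OFFDOX (log2 fold change 0.997, SE 0.15, edgeR adjusted p = 0.00139). In each of the 3, the lowest ONDOX tumor was clear of the highest OFFDOX tumor.

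Srsf1, a splicing factor that acts as an oncogene when overproduced, averaged 884 ± 92.0 CPM in ONDOX and 434 ± 120 CPM in OFFDOX (SD, n = 7 and 4; log2 fold change 1.02, edgeR adjusted p = 0.00277). Srsf2, mutated in human myeloid neoplasms, averaged 586 ± 74.2 CPM in ONDOX and 286 ± 49.4 CPM in OFFDOX (log2 fold change 1.04, edgeR adjusted p = 0.00144). Its exons overlap those of Mfsd11 on the other strand over 9.74% of their bases and those of Mettl23, which has no row under that name, over 15.55%. Other members also had overlaps on the other strand, such as Sf3a2 with Plekhj1 (16.14%) and Snrpa with BC024978 (11.03%). Srsf10, which turns into a splicing repressor when dephosphorylated, Srsf9 and Srsf11 were 1.96-fold, 1.79-fold and 1.61-fold higher in ONDOX. Per kilobase of the principal transcript, the mean level in ONDOX was highest of the 42 for Srsf3, at 347 CPM per kilobase in ONDOX and 143 in OFFDOX, followed by Srsf2 at 309 in ONDOX and 151 in OFFDOX. Srsf5, which was not called, had 241 CPM per kilobase in ONDOX and 199.9 in OFFDOX, the highest OFFDOX level of the 42.

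Srsf4, Srsf5 and Srsf12 did not pass the test, with log2 fold changes of 0.28 (SE 0.25), 0.27 (SE 0.18) and 0.19 (SE 0.65). Srsf5 had 312, 366 and 454 CPM in ONDOX against 372, 224, 284 and 374 CPM in OFFDOX, so OFFDOX tumors 1 and 4 lay inside the ONDOX range and tumor 2 was the lowest. That order was the reverse of most other members, for which OFFDOX tumor 2 was high. Srsf4 ranged from 189 to 357 CPM in ONDOX, and OFFDOX tumors 2, 3 and 4 lay inside that range, at 288, 279.7 and 197 CPM. Srsf12, a low-abundance SR protein, ranged from 2.12 to 12.5 CPM in ONDOX and from 0.657 to 14.8 CPM in OFFDOX. With library totals as the scaling the fold changes of all 3 were slightly negative (-0.05, -0.05 and -0.10) and not called.

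**Figure D3:**
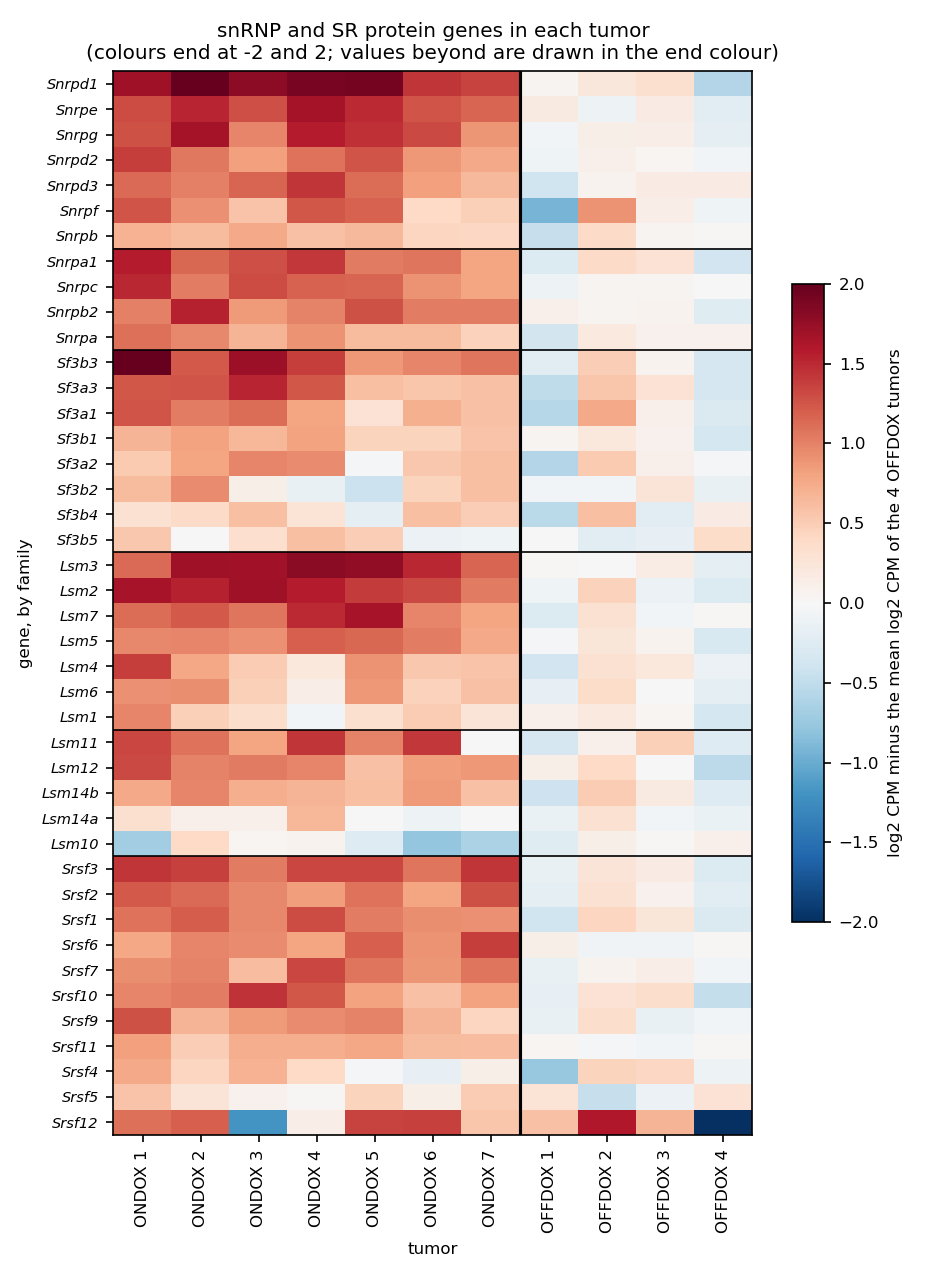
Log2 CPM of each tested gene (rows, by family) in each tumor (columns), less the gene's mean log2 CPM over the 4 OFFDOX tumors. Red is higher and blue lower. ONDOX columns are red in most rows, with mixed colours in some, among them Lsm10, Lsm14a, Sf3b2, Sf3b5, Srsf4 and Srsf12. OFFDOX tumor 2 is the highest OFFDOX tumor in 27 rows.

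Within the groups, the same tumors were often high or low. Among OFFDOX tumors, tumor 2 had the highest value in 27 of 42 genes, and tumors 1 and 4 had the lowest in 19 and 18. OFFDOX tumor 2 lay below all ONDOX tumors in 28 of the 42. It was the highest OFFDOX tumor in 6 of 8 SF3 genes, 6 of 7 LSm ring genes and 3 of 7 Sm genes. It also had the lowest lung sum and the highest mitosis sum of the OFFDOX tumors (58.4 and 4574 CPM). The part of either in its levels of the 42 genes was not tested. In ONDOX, tumor 1 had the highest value in 15 genes and tumor 7 the lowest in 16. The order of the tumors was not counted over all genes, so these orders are not shown to be particular to the 42 genes. Summed over the 42 genes, the level was 10465 CPM in ONDOX tumor 1, which had the highest Mycn, and 8142 CPM in ONDOX tumor 6, which had the second highest Mycn. ONDOX tumor 5, with the lowest Mycn, had 8969 CPM. The ONDOX sums ranged from 8142 to 10465 CPM and the OFFDOX sums from 4490 to 5868 CPM.

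When the score of the lung markers entered the model, 20 of the 42 genes were called higher and 0 lower (30 and 0 at an unadjusted p below 0.05, beside 15.3% and 10.4% of all genes), where 6.97% of all genes were called higher and 3.10% lower. All 20 were among the 31 called without it. The 8 SR genes kept their calls, as did 5 Sm genes, 3 U1 and U2 genes and 4 LSm ring genes, while 0 of 8 SF3 and 0 of 5 other LSm genes were called by edgeR (3 and 3 at an unadjusted p below 0.05). Without the score, DESeq2 and limma voom each called 4 SF3 and 3 other LSm genes. Among the SF3 genes the log2 fold change with the covariate was 1.14 for Sf3b3 (edgeR adjusted p = 0.0543) and 0.50 for Sf3b1 (adjusted p = 0.0966). Snrpa (0.57, adjusted p = 0.0711), Snrpb (0.46, adjusted p = 0.134) and Lsm12 (0.72, adjusted p = 0.0662) also missed the threshold. What part the immune and endothelial markers, also lower in ONDOX, had in these values was not tested. Nor was the part of the mitosis markers, of which 6 of 15 were called higher in ONDOX.

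**Figure D4:**
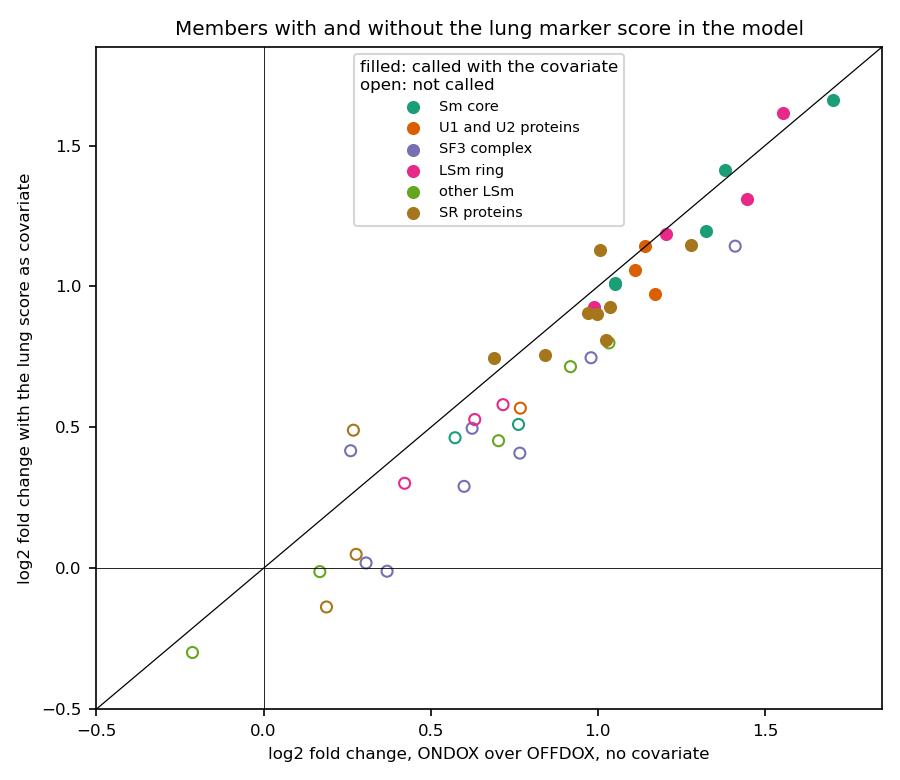
Log2 fold change, ONDOX over OFFDOX, of each tested gene without (x axis) and with (y axis) the lung marker score in the model, coloured by family. Filled points are the 20 genes called with the score, open points the other 22, and the diagonal marks equal values. All filled points lie at 0.69 or more on both axes, the lowest being Srsf11 at 0.69 without the score and 0.75 with it.

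Genes outside these symbols were taken in 9 lists of related function, which hold mRNA decay and decapping factors besides splicing factors. Of 146 tested, 85 were called higher and 1 lower, beside the 16.0% and 13.4% of all genes. The median log2 fold change of the 146 was 0.65. Factors that build snRNPs had 13 of 18 higher. Wdr77, the partner of PRMT5 that presents Sm proteins for methylation, had 108, 122 and 145 CPM in ONDOX against 47.9, 51.4, 47.0 and 45.3 CPM in OFFDOX (log2 fold change 1.40, SE 0.14, edgeR adjusted p = 0.000318). Strap, an SMN complex protein, averaged 397 ± 70.2 CPM in ONDOX and 152 ± 20.9 CPM in OFFDOX (log2 fold change 1.39, edgeR adjusted p = 0.000612). Prmt5 itself and Clns1a, which delivers Sm proteins to it, both named after their values were seen, had log2 fold changes of 1.79 and 1.36 (edgeR adjusted p = 0.000804 and 0.000689).

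Other snRNP proteins were higher for 14 of 27 genes, with Nhp2l1 (1.02), which binds U4 RNA, and the U5 protein gene Txnl4a (0.97). Branch site factors were higher for 7 of 10, with Rbm17 (0.98) and the helicase gene Ddx39b (0.97), and factors of the catalytic steps for 10 of 22, with Ppil1 (1.18) and Cwc22 (0.95). hnRNP proteins, which bind nascent RNA and often oppose SR proteins, were higher for 21 of 22, with Hnrpll (1.22) and Hnrnpc (1.20), and SR-related proteins for 8 of 15, with Bclaf1 (1.32) and Tra2b (1.10). The genes named are those with the smallest p of their list, and the values are log2 fold changes, ONDOX over OFFDOX, each with an edgeR adjusted p of at most 0.00207. Exon junction and decay factors were higher for 5 of 13 (Magohb 1.24 and Magoh 1.02 on the same scale, edgeR adjusted p = 0.0014 and 0.00473). Decapping factors, the partners of the Lsm1 ring, were higher for 2 of 9 (Dcp1a 0.79 and Edc3 0.50, edgeR adjusted p = 0.0116 and 0.0374). That share of 22.2% was near the 16.0% of all genes called higher. The call of Edc3 was lost in 9 of 11 fits without 1 tumor and in 7 of 9 other settings, and that of Dcp1a under upper quartile scaling and library totals (adjusted p = 0.0521 and 0.0745).

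Among the kinases and the importin that act on SR proteins, 5 of 10 were higher and 1 was lower. Tnpo3, which imports phosphorylated SR proteins into the nucleus, averaged 212 ± 27.3 CPM in ONDOX and 110 ± 9.26 CPM in OFFDOX (SD, n = 7 and 4; log2 fold change 0.95, edgeR adjusted p = 0.00133). Srpk3, a kinase gene known for its expression in muscle, was lower, at 0.00, 0.18 and 1.72 CPM as lowest, median and highest value in ONDOX against 5.202, 3.67, 4.53 and 1.88 CPM in OFFDOX (log2 fold change -3.11, SE 0.81, edgeR adjusted p = 0.0154). It passed the low-count filter through the OFFDOX tumors, since 6 of 7 ONDOX tumors had at most 0.546 CPM, so its lower call is given as a description only. With the lung score in the model its log2 fold change was -3.03 and the adjusted p 0.0788. Muscle markers varied between tumors of both groups, as given above, and their part in this was not tested. The nuclear SR kinases Clk1, Clk2, Clk3 and Clk4, named after their values were seen, had log2 fold changes between -0.17 and -0.03 and were not called (edgeR adjusted p = 0.533 to 0.93).

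**Figure D5:**
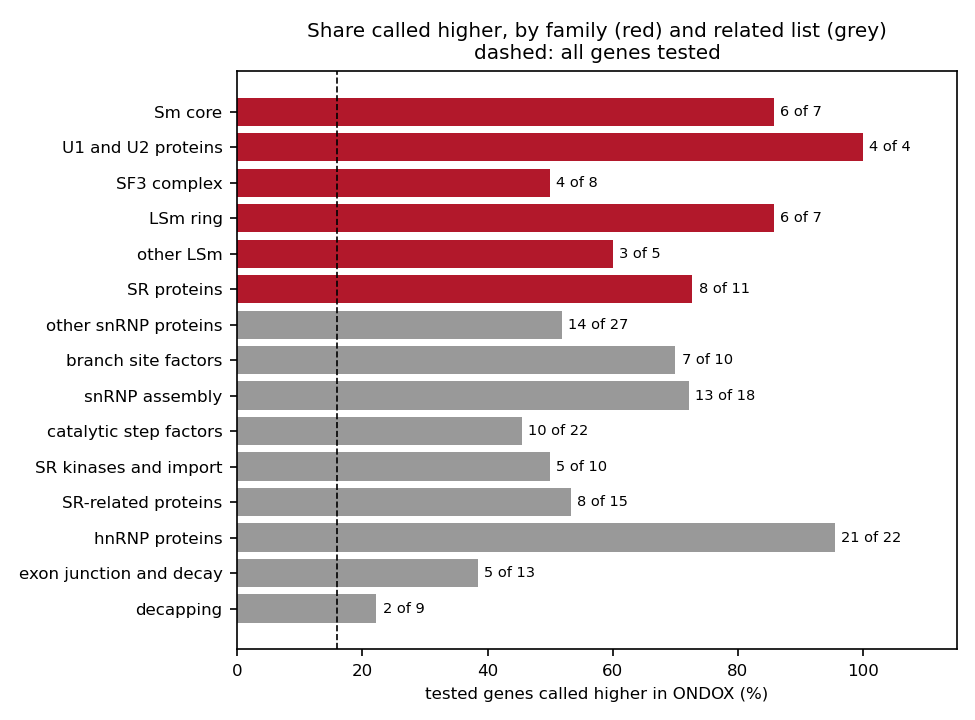
Share of tested genes called higher in ONDOX (x axis, %) in the 6 families (red) and the 9 related lists (grey), with the counts beside each bar. The dashed line marks the 16.0% of all tested genes. The U1 and U2 proteins (4 of 4) and the hnRNP proteins (21 of 22) have the longest bars and the decapping factors (2 of 9) the shortest.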

How the data were processed

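TRIzol RNA was enriched for mRNA with oligo-dT beads and made into NEBNext Ultra libraries, per the labels' protocols. The submitters' processing notes name bcl2fastq 1.8.4, TopHat2 2.0.8b and HTSeq 0.6.1 and build mm9. Annotation, options and strand setting are not given in the sources used here. Without the strand setting, a gene cannot be told apart from an antisense partner. What the authors deposited are raw read counts, whole numbers for each gene symbol, in 1 file per tumor. The 5 summary rows that name no gene stayed out of library sizes and tests (14.8% to 21.5% of records had no feature and 0.831% to 1.04% were ambiguous).

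The tests ran in edgeR 4.0.16 under R 4.3.3: filterByExpr (minimum count 10, minimum total 15), TMM factors (0.835 to 1.01 in ONDOX and 1.09 to 1.22 in OFFDOX) and the robust quasi-likelihood test with no covariate. P-values were adjusted by Benjamini-Hochberg over all 15237 genes, with calls at an adjusted p below 0.05. The biological coefficient of variation was 53.7%. SE is the absolute log2 fold change over the square root of F. Read ratios had 0.5 added to both counts. The lung score was the mean log2 CPM (prior count 2) of the lung list. Transcript lengths and overlaps came from GENCODE M21 and promoters from RefSeq, both on GRCm38, not the files' build. Alternatives were 3 other scalings, DESeq2 1.42.0, limma 3.58.1 voom, other low-count filters, a replicate block, the lung score and leaving out each tumor. The test was checked on simulated counts with 200 genes changed, equally up and down. That setting does not check how the test behaves under a change as broad as the one called here. Every pair of tumors within a group differed by more than sampling noise (chi-square per gene of 51.0 or more).

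The members, lists and tests were chosen with earlier results of these data known. In each family the 3 genes with the smallest p, those with a sign opposite to the family's median and those in a ratio have full values. Up to 2 genes with the smallest p are named per related list.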

Additional observations from a re-analysis of the deposited data

Results flagged for a closer look

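A search of the 42 tested genes and Mycn for a tumor far from the rest of its group, by the gap to the nearest tumor over the group's range, covered 86 groups of values and found 2, where chance gives about 1 in 20. Snrpb2 was low in OFFDOX tumor 4 at 55.5 CPM, while the other OFFDOX tumors lay between 68.5 and 70.5 CPM, and its call held without that tumor. Lsm14a was high in OFFDOX tumor 2 at 168 CPM, while the other OFFDOX tumors lay between 124 and 131 CPM.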

How the results depend on the processing

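Of the 31 members called higher, 20 were called under all 9 other settings and all 11 fits without 1 tumor, and 24 in all 11 of those fits. No member was called lower under any of these. Without 1 tumor, members called higher ranged from 24 (without OFFDOX replicate 4) to 33 (without OFFDOX replicate 2). By family that range was 5 to 7 Sm, 4 to 6 LSm ring, 2 to 5 SF3 and 1 to 3 other LSm genes. All genes then gave 1674 to 2955 higher and 1015 to 2438 lower calls and the related lists 53 to 87 higher, where 1015 and 53 were without OFFDOX replicate 1. With library totals, 1317 genes were higher and 3347 lower, with 1 SF3, 1 other LSm and 41 related genes higher and 5 related genes lower. With upper quartile factors (median of all genes -0.21; 11.1% of all genes higher, 19.0% lower), 27 members were higher, with Lsm4, Lsm6, Sf3a1 and Snrpb lost, as were 54 related genes, and 2 related genes were lower. The lung score gave 1062 genes higher and 472 lower, 20 members, 0 SF3, 0 other LSm and 37 related genes higher and 0 related lower. The stricter low-count filter gave 0 related genes lower because Srpk3 was not tested there.

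In these settings, log2 fold changes reversed for members that were not called: Lsm14a (-0.038 with upper quartile factors, -0.14 with library totals, -0.012 with the lung score), Sf3b4 (-0.00087), Sf3b5 (-0.055), Srsf4 (-0.04999), Srsf5 (-0.047) and Srsf12 (-0.10) with library totals, and Sf3b2 (-0.011) and Srsf12 (-0.14) with the lung score. Without 1 tumor, Srsf12 ranged from -0.19 (without OFFDOX replicate 4) to 0.73. The Snrpn to Snrpb ratio was -0.19 with 5 counts added (exact permutation p = 0.788). The same difference for the log2 Lsm10 to Snrpd1 ratio ranged from -2.09 to -1.76 without 1 tumor. The causes were not tested.

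Same-numbered tumors of the groups correlated at -0.16 to 0.46, and 4 of 8 correlated best with their own number. These values do not settle whether the numbers pair the tumors, and the main model took them as unpaired. With the replicate block 28 members were higher, as were 1872 genes, and 1152 genes were lower. Lsm4, Lsm6, Lsm11 and Snrpb lost their calls there, and Sf3a2 gained one (edgeR adjusted p = 0.0479). The row 0610009D07Rik also lost its call (edgeR adjusted p = 0.1002). Reads per tumor were few for Snrpn (0 to 28) and Srsf12 (7 to 158).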
